A study of Citrus sinensis with 6 samples.

Results

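CHLASE1, PSAE and PSADB are nuclear genes of sweet orange (Citrus sinensis) whose symbols name a chlorophyllase and 2 small subunits of photosystem I. These 3 genes were found by symbol among the 31688 genes of the transcript tables. A gene value was the sum over its transcripts of FPKM, an abundance scaled for transcript length and for library depth. The RNA came from excised albedo, the white inner layer of the peel, 3 days after an inoculation. Of 6 libraries, 3 (called SA libraries here) were treated with the antagonist yeast Rhodotorula mucilaginosa plus salicylic acid at 0.2 mM, a hormone of plant defence, and 3 (called yeast-only libraries) with R. mucilaginosa and no added hormone. All 6 therefore carried the yeast, and no untreated fruit or green peel was analysed here. The labels give neither what the fruit were inoculated with nor the number of fruit behind a library, and do not say that libraries came from separate fruit. The p-values thus rest only on the variation among these samples, and that variation may be technical.

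Photosystem I is the light-driven complex of the thylakoid membrane that passes electrons to ferredoxin on the stromal side of the chloroplast. Its core subunits are encoded in the chloroplast genome, whereas PsaD and PsaE, small subunits at the ferredoxin docking site, are encoded in the nucleus and imported. Chlorophyllase removes the phytol tail of chlorophyll, and in citrus it is best known from the outer peel, where ethylene treatment raises it while the fruit loses its green colour.

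Each of the 3 genes had a single transcript in the files, the annotated RefSeq model, so gene and transcript values were the same. CHLASE1 (transcript NM_001288890.1) lay on NC_023050.1 from 32614870 to 32616047 (minus strand) and had 2 exons and a transcript of 1068 bases. PSAE (NM_001288849.1), the PsaE gene, lay on the same sequence and strand from 35277554 to 35278898, with 3 exons and 649 transcribed bases, 2662 kilobases from CHLASE1. PSADB (NM_001288933.1), a PsaD gene, lay on NC_023054.1 from 4125230 to 4126154 on the plus strand, as a single exon of 925 bases. No source used here names the genome build.

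Depth was 4.78 to 5.24 gigabases in the SA libraries and 4.11 to 4.87 gigabases in the yeast-only libraries. For the 3 genes it can be read as aligned bases, the product of mean coverage and transcript length. Among single-exon transcripts with few aligned bases, 300 was the most frequent amount in all 6 libraries, and it was taken here as 1 sequenced fragment. On that scale CHLASE1 rested on 210 to 362 fragments in a library, PSAE on 26.6 to 65.7 and PSADB on 9.0 to 37.9. Counting error alone, as the inverse square root of these numbers, would be 5.25% to 6.90% for CHLASE1, 12.3% to 19.4% for PSAE and 16.3% to 33.4% for PSADB.

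Expression of the photosystem I subunits in the albedo was low but measurable in all 6 libraries. PSAE was listed at 5.97, 4.52 and 3.41 FPKM in SA libraries 1 to 3, and at 7.38, 5.09 and 2.67 FPKM in yeast-only libraries 1 to 3. The 2 ends of this range were both libraries of the yeast-only group, so the groups overlapped. PSADB was listed at 2.30, 1.99 and 1.01 FPKM in SA libraries, and at 2.98, 0.932 and 0.632 FPKM in yeast-only libraries. Here too the highest and the lowest library belonged to the yeast-only group. From the lowest to the highest library, PSAE varied 2.76-fold and PSADB 4.72-fold.

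Chlorophyllase stood higher and varied less. CHLASE1 was at 16.7, 15.0 and 12.4 FPKM in SA libraries 1 to 3, and at 18.8, 20.9 and 21.1 FPKM in yeast-only libraries 1 to 3. Each SA library lay below each yeast-only library, as in 4.56% of all genes tested, and the highest of the 6 values was 1.71 times the lowest. Counted in either direction, the groups did not overlap in 10.2% of all genes tested. The coefficient of variation of CHLASE1 was 15.0% in SA libraries and 6.13% in yeast-only libraries, against 27.7% and 46.6% for PSAE and 38.0% and 84.4% for PSADB in the same order.

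**Figure D1:**
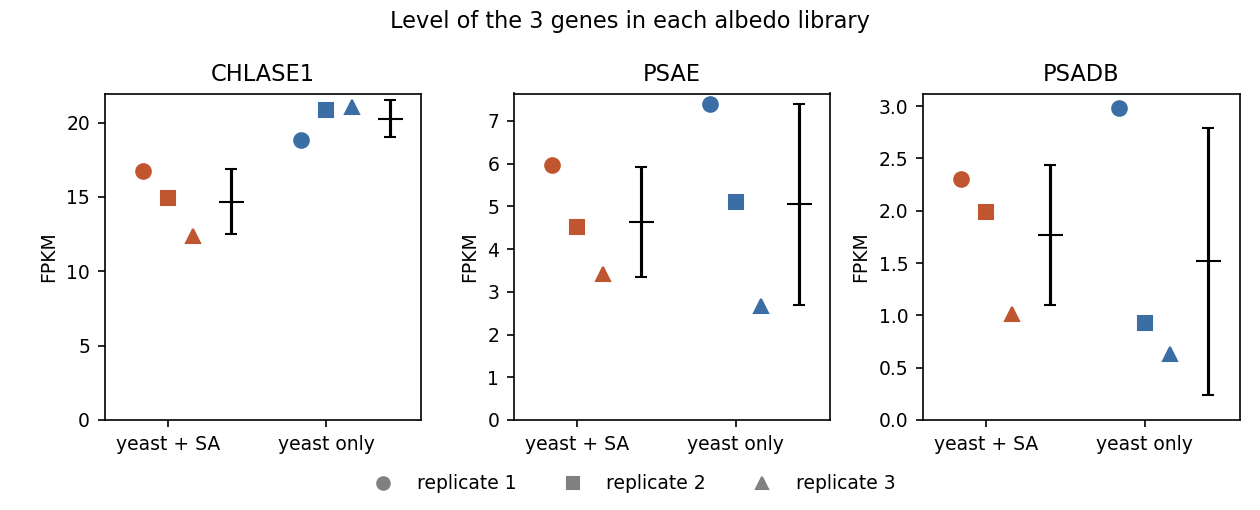
FPKM of CHLASE1, PSAE and PSADB in each library, with SA libraries (yeast + SA) on the left and yeast-only libraries on the right of each panel. Marker shapes give the replicate number and the black bars the mean ± SD of 3 libraries. The CHLASE1 values in SA libraries, 12.4 to 16.7 FPKM, all lie below those in yeast-only libraries, 18.8 to 21.1 FPKM, while the groups overlap for PSAE and PSADB.

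The levels were set against the 17355 genes that averaged 1 FPKM or more across all libraries and so entered the test, whose median was 10.5 FPKM. CHLASE1 stood above 54.6% to 61.9% of these genes in the SA libraries and above 64.4% to 67.6% of them in the yeast-only libraries. PSAE exceeded 24.8% to 36.8% of them in SA libraries and 20.2% to 41.5% in yeast-only libraries. PSADB exceeded 3.66% to 16.5% in SA libraries and 1.15% to 21.7% in yeast-only libraries, and its mean of 1.64 FPKM lay near the minimum for entering the test.

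A second PsaD gene, PSADA, was named in the files as well and lay 253 kilobases from CHLASE1. It was at 0.204, 0 and 0.492 FPKM in SA libraries 1 to 3 and at 0.414, 0.140 and 0.222 FPKM in yeast-only libraries, which is at most 6.9 fragments a library. PSADB was thus the more abundant of the PsaD genes in every library. No source used here says how reads common to both copies were divided. Although PsaD and PsaE are subunits of the same complex, the transcripts of PSADB and PSAE were not equally abundant per length. The FPKM of PSAE was 2.27 to 3.37 times that of PSADB in SA libraries and 2.47 to 5.46 times in yeast-only libraries. These ratios leave out PSADA, and adding it to PSADB would lower them in each library where PSADA was above 0.

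The PSAE locus overlaps annotated genes on the opposite strand. The final 136 bases of LOC102617291 reach into it, and the non-coding gene LOC112498261 lies wholly within its span. LOC102617291 was at 0.589 to 1.43 FPKM in SA libraries and 0.487 to 1.29 FPKM in yeast-only libraries. LOC112498261 was at 0.255 to 0.369 FPKM in SA libraries and 0 to 0.336 FPKM in yeast-only libraries, below PSAE in every library. No source used here says whether the libraries kept strand, so reads of PSAE and of these genes may not have been told apart.

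Photosynthesis genes of the chloroplast genome were taken as markers of chlorophyll-bearing tissue, and each had a lower mean FPKM than PSAE. Of 29 such genes for photosystem I and its assembly, photosystem II, the cytochrome b6f complex and the large subunit of Rubisco, 19 had a mean below 1 FPKM and 1, petN, was listed at 0 in every library. The highest was petG, a small cytochrome b6f subunit, with a mean of 4.27 FPKM over the 6 libraries. The fragments behind petG were not counted here, and such FPKM values can rest on few. psbN, which reached 1.61 FPKM, had at most 3.7 fragments a library. rbcL, the large subunit of Rubisco, was at 2.28, 1.06 and 1.55 FPKM in SA libraries 1 to 3 and at 1.55, 0.949 and 1.28 FPKM in yeast-only libraries. The labels do not say how far library preparation kept plastid RNA, so these levels do not measure the amount of green tissue. In bulk RNA fewer green cells and less of the transcript per cell cannot be told apart. The files name no nuclear light-harvesting or Rubisco small subunit gene by symbol, and markers of the albedo itself were not tested.

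The summed FPKM of the 29 chloroplast genes was 41.8, 28.5 and 25.2 in SA libraries 1 to 3 and 36.0, 27.5 and 31.9 in yeast-only libraries 1 to 3. By this sum replicate 1 was the highest of its group, as it was for PSAE and PSADB. In yeast-only library 3, however, the chloroplast sum was the third highest of the 6 while both nuclear subunit genes were at their lowest. The share of aligned bases on transcripts of the chloroplast genome was 0.0992%, 0.0301% and 0.0376% in SA libraries 1 to 3. In yeast-only libraries 1 to 3 this share was 0.0689%, 0.0487% and 0.109%, so there replicate 3 was the highest.

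Genes of carotenoid synthesis and turnover, which act in plastids whether or not these are green, were higher than each of the 29 chloroplast genes in mean FPKM. The 7 measured genes, among them the phytoene synthase CitPSY, the phytoene desaturase CitPDS and the beta-carotene hydroxylase CitHYb, had a median of 16.7 FPKM over the 6 libraries. CitHYb was at 316 FPKM on average in SA libraries and 320 FPKM in yeast-only libraries. CHLASE1, at a mean of 17.5 FPKM, was close to the median of these pigment genes, whereas PSAE was near the lowest of them, CitLCYb (4.49 FPKM in SA libraries and 4.22 FPKM in yeast-only libraries), a lycopene cyclase gene, and PSADB was below it.

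**Figure D2:**
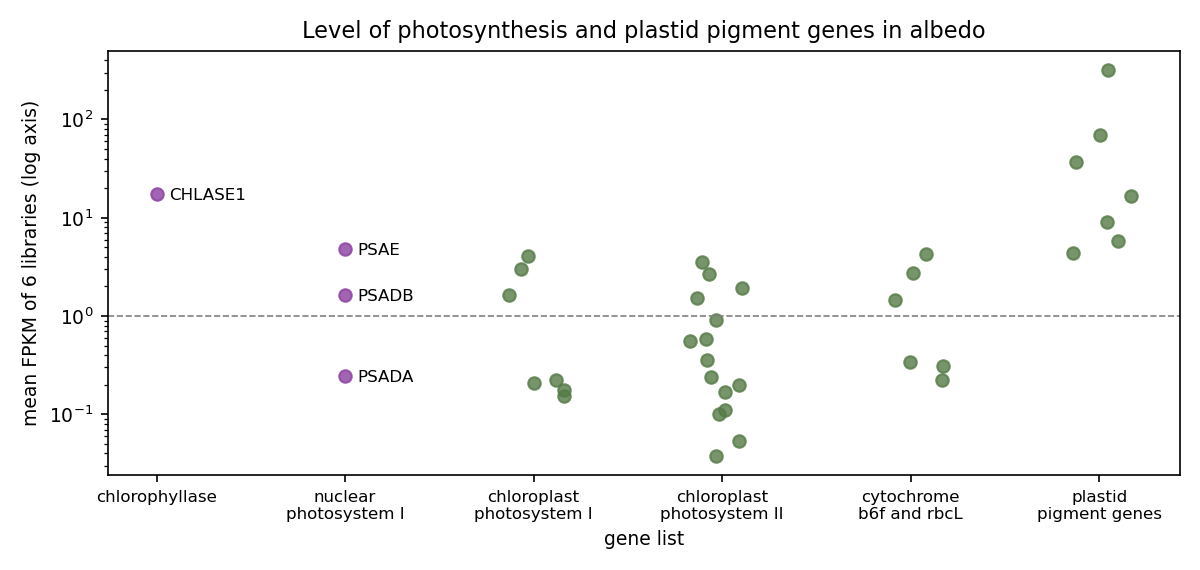
Mean FPKM over the 6 libraries, on a log axis, for CHLASE1, the nuclear photosystem I genes, the chloroplast-genome lists and the plastid pigment genes, with 1 point a gene. The dashed line marks 1 FPKM, and petN, listed at 0, is not drawn. PSAE at 4.84 FPKM lies just above the highest chloroplast gene, PSADB at 1.64 FPKM among the upper ones, and CHLASE1 at 17.5 FPKM lies among the pigment genes.

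The 2 treatments were compared by limma on log2(FPKM + 1), a scale that understates changes of low genes. CHLASE1 was at 14.7 ± 2.20 FPKM in SA libraries and 20.3 ± 1.24 FPKM in yeast-only libraries (SD, n = 3 each), a ratio of 0.725. On the log2 scale it differed by -0.45 (SE 0.15, 95% interval -0.78 to -0.11). limma gave an unadjusted p of 0.0151 and an adjusted p of 0.902 over all genes, short of the threshold of 0.05. An unadjusted p under 0.05 in limma was reached by 5.23% of all genes tested in either direction and by 2.18% with a lower value. Of the 3 genes described here, 1 reached it. By p, CHLASE1 was number 289 of the 17355 genes, and 1 gene, or 0.00576%, passed the adjusted threshold, the unannotated locus MSTRG.22149. An exact two-sided permutation test of CHLASE1 alone gave p = 0.1, the smallest that 3 against 3 libraries allow.

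Neither subunit gene passed. PSAE averaged 4.63 ± 1.29 FPKM in SA libraries and 5.05 ± 2.36 FPKM in yeast-only libraries (SD, n = 3 each), with a log2 difference of -0.05 (SE 0.31, 95% interval -0.74 to 0.65). Its adjusted p was 0.998 in limma. PSADB averaged 1.77 ± 0.673 FPKM in SA libraries and 1.52 ± 1.28 FPKM in yeast-only libraries (SD, n = 3 each), with a log2 difference of 0.22 (SE 0.35, 95% interval -0.58 to 1.02). Its adjusted p was 0.988 in limma. Both intervals are wide enough to hold the log2 difference of CHLASE1, so these data do not show that the subunit genes stayed level.

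The order of the means of both subunit genes rested on single libraries. For PSAE the mean in SA libraries was the higher, 5.25 against 5.05 FPKM, without SA library 3, and 4.63 against 3.88 FPKM without yeast-only library 1. For PSADB the mean in SA libraries was the lower, 1.50 against 1.52 FPKM, without SA library 1. It was also the lower without yeast-only library 2, 1.77 against 1.81 FPKM, and without yeast-only library 3, 1.77 against 1.96 FPKM. On the log2 scale of the test, the PSADB difference turned negative only without yeast-only library 3 (-0.034). That log2 difference was 0.078 without SA library 1 and 0.087 without yeast-only library 2. For CHLASE1 the mean in SA libraries was lower with any 1 library left out, and the log2 difference then ranged from -0.54 to -0.34.

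Of the 29 chloroplast genes, 10 entered the test, with 5 higher and 5 lower in SA libraries and 0 passing in limma. Among them 0 had an unadjusted p under 0.05, against 5.23% of all genes, and the groups overlapped in all 10, against 10.2% of all genes without overlap. Their median log2 difference was -0.01, against 0.02 over all genes tested. psaC, a photosystem I subunit that holds iron-sulphur clusters, averaged 1.80 FPKM in SA libraries and 1.45 FPKM in yeast-only libraries, and ycf3, a photosystem I assembly factor, 3.64 and 4.60 FPKM in the same order. Of the 7 pigment genes, 4 were higher and 3 lower, 0 passed, and 0 had an unadjusted p under 0.05. Their log2 differences lay between -0.04 and 0.12, with a median of 0.02.

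**Figure D3:**
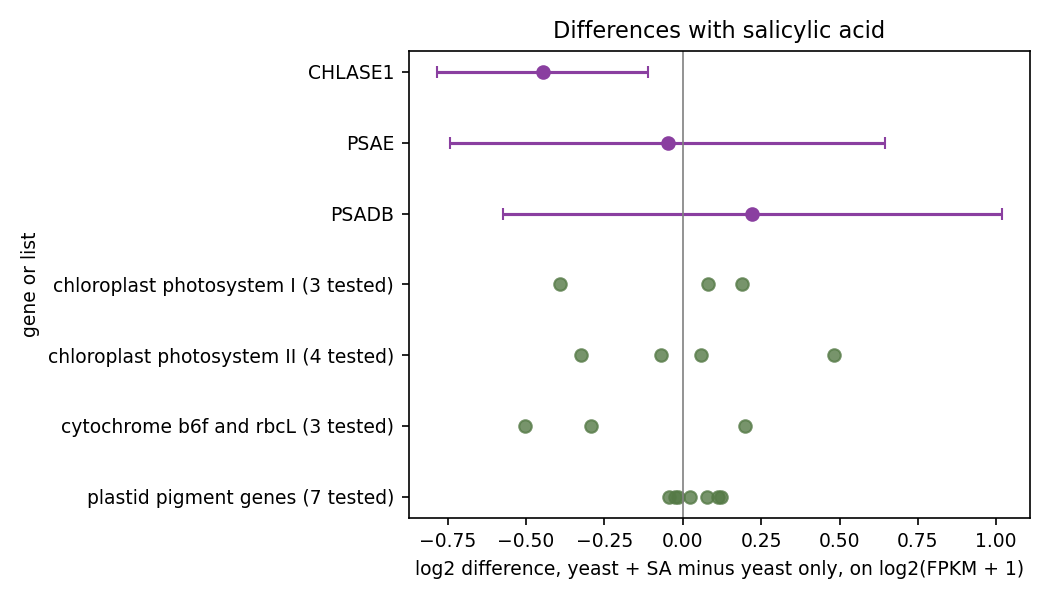
Log2 differences, SA minus yeast-only libraries, on the log2(FPKM + 1) scale. The 3 upper rows show CHLASE1, PSAE and PSADB with 95% intervals from limma, and the lower rows show the tested genes of each list as points. The interval of CHLASE1, -0.78 to -0.11, lies below 0, without passing after adjustment over all genes, and those of PSAE and PSADB include 0.

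The last comparison asked whether chlorophyllase followed the photosystem subunits from library to library. Within the SA libraries the 3 genes had the same order, with replicate 1 highest and replicate 3 lowest in each. Within the yeast-only libraries, PSAE and PSADB were again highest in replicate 1 and lowest in replicate 3, but CHLASE1 was lowest in replicate 1 and highest in replicate 3. The CHLASE1 values of the yeast-only libraries differed little, with a coefficient of variation of 6.13% against a counting error of 5.25% to 6.02% a library, so their order is not resolved at this depth. The FPKM ratio of CHLASE1 to PSAE was 2.80, 3.31 and 3.62 in SA libraries 1 to 3, and 2.55, 4.10 and 7.88 in yeast-only libraries 1 to 3. These ratios overlapped between the groups and spread more widely in yeast-only libraries.

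Over the 6 libraries, log2(FPKM + 1) of CHLASE1 and PSAE had a Pearson's r of 0.132 (exact permutation p = 0.803) and a Spearman's rho of -0.0286 (exact permutation p = 1). CHLASE1 and PSADB had an r of -0.155 (exact permutation p = 0.776) and a rho of -0.429 (exact permutation p = 0.419). Adjusted over the 3 pairs computed, the p-values of r were 0.803 for both, and those of rho 1 for PSAE and 0.629 for PSADB. Without the 2 libraries farthest from the median of CHLASE1, replicate 3 of each group, r was 0.362 with PSAE and -0.453 with PSADB. After the group means were taken out, r was 0.159 with PSAE and 0.105 with PSADB. With 1 library left out, r ran from -0.298 to 0.744 for PSAE and from -0.645 to 0.191 for PSADB, so neither sign was settled. The value of 0.744 was reached without yeast-only library 3.

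The subunit genes PSADB and PSAE had an r of 0.860 (exact permutation p = 0.0306, adjusted over the 3 pairs 0.0917) and a rho of 0.829 (exact permutation p = 0.0583, adjusted 0.175). This did not pass after adjustment. Without yeast-only libraries 1 and 3, the libraries farthest from the median of PSADB, r was 0.562 over a narrower range of PSADB. With 1 library left out, r stayed between 0.760 and 0.981. As a description of how common such values were over these 6 libraries, 171 tested genes, or 0.985%, had a higher r with PSAE than PSADB had. Seen from PSADB, 328 tested genes, or 1.89%, had a higher r with it than PSAE had. For CHLASE1, 6607 genes, or 38.1%, had a higher r than PSAE.

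**Figure D4:**
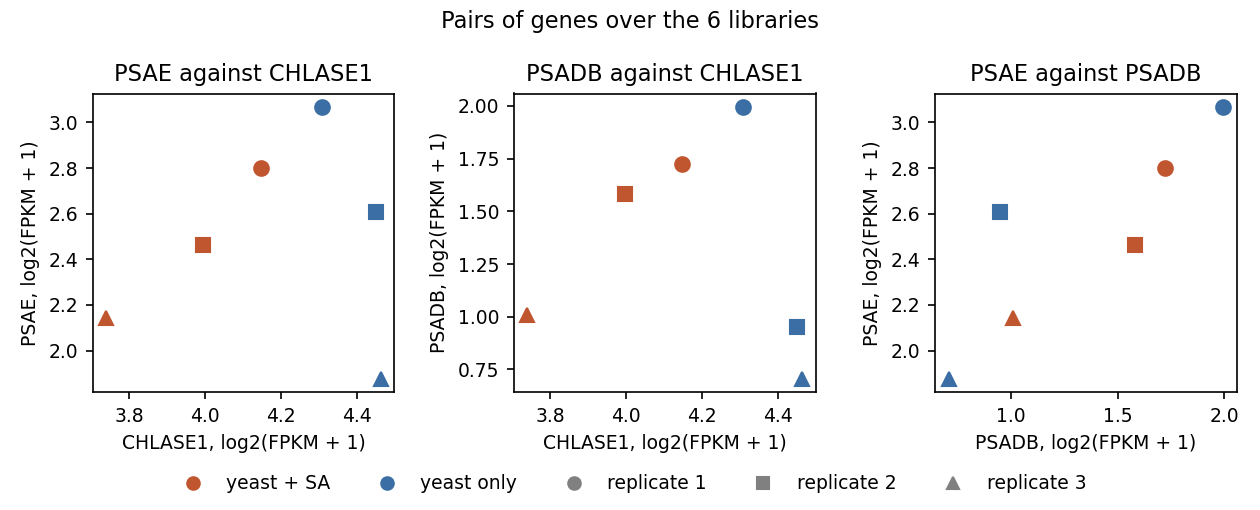
Levels of each pair of genes over the 6 libraries as log2(FPKM + 1), coloured by group (yeast + SA, SA libraries), with marker shapes for the replicate number. Libraries with more PSADB mostly had more PSAE (r of 0.860, adjusted p of 0.0917 by the exact permutation test), whereas the points of CHLASE1 against PSAE and PSADB show no common order (r of 0.132 and -0.155).

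The proportion of chlorophyllase to the photosystem subunits was compared between groups as the log2(FPKM + 1) of CHLASE1 minus the mean of the subunit genes on the same scale. It was 1.89, 1.97 and 2.16 in SA libraries 1 to 3 and 1.78, 2.67 and 3.17 in yeast-only libraries 1 to 3. The groups overlapped, since yeast-only library 1 had the lowest value of all. The means were 2.01 ± 0.142 in SA libraries and 2.54 ± 0.706 in yeast-only libraries (SD, n = 3 each), a difference of -0.53 on the log2 scale (exact two-sided permutation test, p = 0.4, where the smallest possible is 0.1).

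Among the 102 tested genes with a symbol, those with the pattern most like each gene were found by Pearson's r over the 6 libraries, so all values of a library have its depth and treatment in common. For CHLASE1 these were the chloroplast tRNA gene trnW-CCA with an r of 0.848, UGT3 with 0.837 and petG with 0.824. UGT3 was at 146, 118 and 110 FPKM in SA libraries and 162, 152 and 140 FPKM in yeast-only libraries, with overlapping groups. For PSADB they were the tRNA gene TRNAL-CAG with 0.956, EIL1 with 0.876 and TDX with 0.868. For PSAE they were the tRNA gene TRNAR-UCU with 0.912, EIL1 with 0.786 and TRNAL-CAG with 0.748. None of these symbols had the highest r among the 17355 tested genes, but the genes with a higher r were a small share. Of all tested genes, 294 had a higher r with CHLASE1 than trnW-CCA had. With PSADB, 36 had a higher r than TRNAL-CAG, and with PSAE, 64 had a higher r than TRNAR-UCU. EIL1, whose symbol is that of a transcription factor of ethylene signalling, was at 104, 63.3 and 68.9 FPKM in SA libraries and 109, 55.1 and 52.0 FPKM in yeast-only libraries, and so shared with both subunit genes a high value in replicate 1 of each group.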

How the data were processed

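Total RNA of 6 albedo libraries was sequenced on an Illumina HiSeq instrument, per the labels' protocols. The tables hold, per the file headers, the FPKM of every transcript and its mean per-base coverage, a signal that was not normalized. No source used here names the aligner, assembler or genome build. The authors' deposited gene table holds a score per gene in a unit of its own, which differs from the summed FPKM, and was used as an alternative.

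Groups and replicate numbers came from the sample titles. Transcript FPKM was summed by gene name, and 17355 genes with a mean FPKM of at least 1 were tested as log2(FPKM + 1) in limma 3.58.1 (R 4.3.3, two-sided, mean-variance trend, Benjamini-Hochberg adjustment over all genes, threshold 0.05). The test was checked on simulated data. Ratios and correlations had exact permutation tests (scipy 1.17.1). Depth is the ratio of coverage to FPKM. Named genes were the 3 members, the chloroplast and pigment lists, and the 3 symbols of highest r with each member. Pigment genes with LOC identifiers were matched by synonyms of the reference gene table (assembly DVS_A1.0, names only). Members and lists were chosen with earlier results of these data known. No sequence was used here. Alternatives were other pseudocounts, filters, scalings, the deposited table, a replicate block and leaving out each library.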

Additional observations from a re-analysis of the deposited data

How the results depend on the processing

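Of 110 results recomputed under alternatives, 94 were unchanged. A difference, correlation or ratio was unchanged if it kept direction and side of the threshold. None of these had passed the threshold at first, so unchanged means still short of it, whatever the change in size. The ratio test, with a smallest possible p of 0.1, could not have passed. With annotated transcripts only, the values of the 3 genes were the same by construction. The count of 94 is therefore no measure of robustness. The gene count was unchanged if it stayed at 1, as in 7 of its 16 alternatives. The gene count, 1 in limma, was 2 with a pseudocount of 0.1, robust variance, the deposited gene table or the replicate block, 0 with annotated transcripts only (806 at an unadjusted p under 0.05), and 1 to 5 with 1 library left out, with 5 without yeast-only library 2, 3 without SA library 3 and 2 without SA library 1 or 2. The CHLASE1 difference stayed negative and short of the threshold in all 16 alternatives (-0.54 to -0.34, adjusted p 0.642 to 0.9998 in limma, unadjusted p 0.00918 to 0.0634). With 1 library left out, the PSADB difference ran from -0.034 to 0.61, the PSAE difference from -0.37 to 0.23, r of CHLASE1 with PSAE from -0.298 to 0.744 and with PSADB from -0.645 to 0.191. The causes were not tested. Summing PSADA into PSADB, chosen after the data were seen, gave 0.21. The labels do not say that equal numbers pair the libraries, and deviations of same-numbered libraries correlated at 0.114, 0.188 and -0.00939. With the replicate block no call of the 3 genes changed. PSAE and PSADB could not be tested at a mean FPKM of at least 5, nor PSADB in the deposited gene table. At 9.0 to 37.9 fragments a library, the counting error of PSADB was 16.3% to 33.4%, below its coefficients of variation of 38.0% in SA and 84.4% in yeast-only libraries.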

Other observations

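Of the 29 chloroplast genes, with those too low to enter the test included, 3 had groups that did not overlap, or 10.3%, close to the 10.2% found among the genes that entered the test, so this count is no result about them. These 3 were psaA and psaB, which encode the large core proteins of photosystem I, and psbN. All were too low to enter the test. psaA was at 0.241, 0.228 and 0.346 FPKM in SA libraries 1 to 3 and 0.144, 0.199 and 0.101 FPKM in yeast-only libraries 1 to 3. psaB was at 0.135, 0 and 0.150 FPKM in SA libraries 1 to 3 and 0.164, 0.273 and 0.191 FPKM in yeast-only libraries 1 to 3. psbN was at 0.497, 1.61 and 0.812 FPKM in SA libraries 1 to 3 and 0.324, 0 and 0.286 FPKM in yeast-only libraries 1 to 3. These values rest on at most 12.4 fragments a library for psaA, 9.8 for psaB and 3.7 for psbN.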
